A study of Mus musculus with 4 samples.

Results

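The nuclear genes of oxidative phosphorylation were followed in mouse colonoids, cultures of colonic crypt epithelium in which stem cells and their differentiated progeny grow together. They were taken by symbol as all genes named *Nduf*, *Sdha* to *Sdhd*, *Uqcr*, *Cox4* to *Cox8* and *Atp5*, leaving out names with "-ps", with more than 10 counts in at least 2 of the 4 libraries. Of 97 symbols with these letters, 89 passed the filter, among 13979 genes that passed it and 36144 names in the table. The 89 were sorted by their known place into complex I (37 genes), complex II (4), complex III (8), complex IV (12) and complex V (16), with 10 assembly factors and the pair *Ndufa4* and *Ndufa4l2* kept apart. The symbols and the count filter chose them. *Ndufa4l2* passed the filter only through the butyrate libraries, in which it was high.

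RNA was sequenced from untreated colonoids and from colonoids in medium with sodium butyrate at 2 mM, at 48 h and at 72 h. There was 1 library for each of the 4 conditions, so no difference can be set against replicate error, and no p-value is given. The labels give a male WT mouse aged 24 weeks, whereas the study's figure legend gives a Hes1-GFP reporter mouse. All cultures came from proximal colon at passage 3 and shared a crypt medium with EGF, Noggin, R-spondin, B27, N2, CHIR99021 and Y-27632, in which growth factors and a Wnt agonist sustain stem cells. Paired values below are given as untreated against butyrate-treated. The values are whole-number counts per gene from poly-A selected RNA, divided by a size factor for each library (normalised read counts). A log2 change is the log2 ratio of 2 normalised counts after adding 1 to each, and the 95% intervals in parentheses are exact Clopper-Pearson intervals that cover counting error only.

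Library totals were between 20790225 and 24207840 counts, and genes of the mitochondrial genome took between 14.1% and 18.4% of them. The 8 epithelial markers (such as *Epcam* and *Cdh1*) had a summed normalised count between 144061 and 159581. The summed normalised counts of 6 immune markers were at most 71.3, of 5 fibroblast markers at most 21.8, of 3 endothelial markers at most 53.3 and of 3 muscle markers at most 12.7. The T cell marker *Cd3e* had 0 counts in 2 libraries and at most 3 in the others.

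Oxidative phosphorylation couples the oxidation of NADH and succinate to the synthesis of ATP in the inner mitochondrial membrane. Complex I takes electrons from NADH and complex II from succinate, complex III passes them through cytochrome c to complex IV, which reduces oxygen, and the ATP synthase, complex V, uses the proton gradient that complexes I, III and IV build. Most subunits are encoded in the nucleus and a small set in the mitochondrial genome. Colonocytes are known to oxidise butyrate as a main fuel.

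At 48 h the members lay close to their untreated level, and at 72 h most were slightly lower with butyrate. At 48 h the median log2 change of the 89 members was 0.05, with 55 higher and 34 lower. At 72 h it was −0.12, with 17 higher and 72 lower. Over all alternatives in processing the members' median at 72 h lay between −0.12 and −0.065. Over all 13979 genes the medians were −0.01 and 0.00, with 48.7% higher at 48 h and 49.7% lower at 72 h. Of protein-coding genes with a longest transcript of up to 1000 bases 33.9% were lower at 48 h, beside 32.5% of members of that length. A size of difference was set for counting, a normalised count at least 25% higher or at least 20% lower with butyrate, which is the same ratio in both directions. At 48 h 9 members were higher by this size and 0 were lower, where 22.7% of all genes tested were higher and 20.5% lower. At 72 h 3 members were higher and 14 lower by this size, against 18.1% and 17.4% of all genes tested. The 14 are 15.7% of the members, a share near the background, and they were 8 with libraries scaled by total count. Among the 14 was *Atp5g2*, which was at 0.03 when summed with the pseudogene *Gm10175*. Of the members, 87 reached a mean normalised count of 100 or more, and in that range 7 were higher and 0 lower by the fixed size at 48 h, beside 16.4% and 18.3% of all such genes. At 72 h 1 was higher and 14 were lower, beside 12.0% and 13.1%.

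The changes between times were set beside these, since they show how far libraries of like treatment differed. From 48 h to 72 h the members' median was −0.05 without butyrate and −0.24 with it. Against genes of like length the medians were −0.016 and −0.064, and with libraries scaled by total count −0.13 and −0.27. In the untreated libraries 1 member was higher at 72 h by the fixed size and 3 were lower, where 14.5% and 12.5% of all genes were. The 1 was *Atp5g2*, which was at −0.09 when summed with the pseudogene *Gm10175*. In the butyrate libraries the counts were 1 and 27, where 20.8% and 22.8% of all genes were. Of members with a longest transcript of up to 1000 bases 37.5% were lower by this size over time with butyrate, where 41.2% of all protein-coding genes of that length were. Comparisons that share a library are not independent of each other. The lowest of the 4 libraries was butyrate at 72 h for 65 of the 89 members, and the highest was butyrate at 48 h for 52. These counts were not made over all genes tested. All protein-coding genes of up to 1000 bases had a median of 0.15 with butyrate at 48 h and of −0.24 over time with butyrate. The summed counts of the members made up 1.15% of all counts without and 1.16% with butyrate at the earlier time, and 1.06% and 1.01% at the later. In bulk RNA, fewer cells with many mitochondria and less RNA per cell cannot be told apart.

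**Figure D1:**
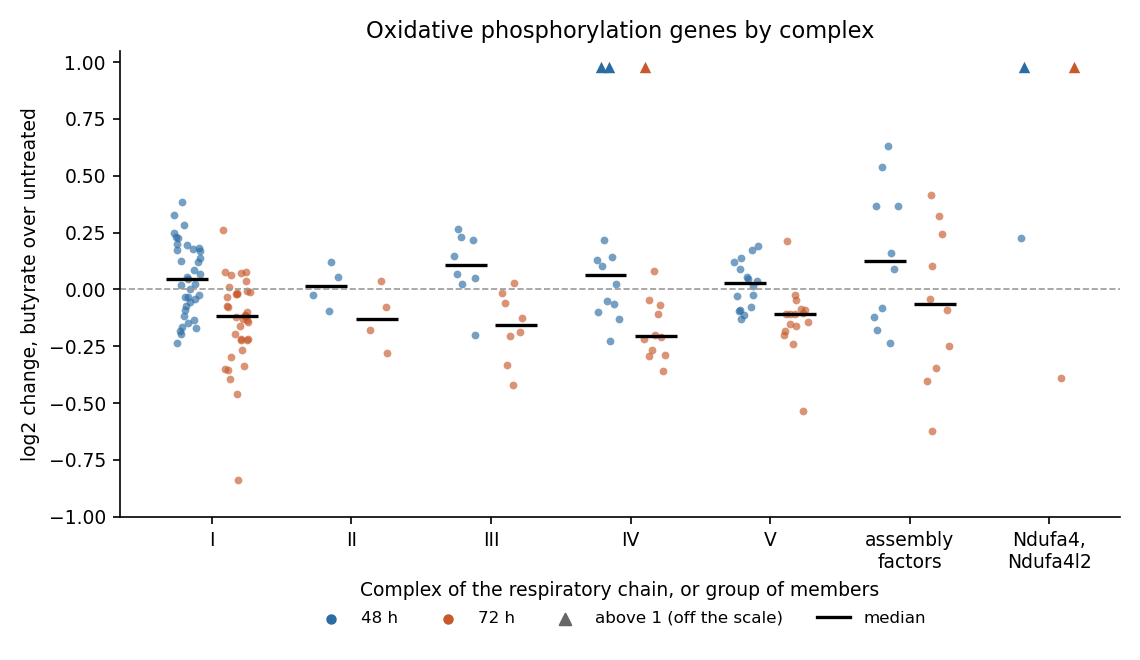
Log2 change of each member with butyrate (vertical axis) at 48 h (blue) and 72 h (orange), by complex (horizontal axis); black lines are medians and triangles mark values above 1. In each of complexes I to V the median was above 0 at 48 h and below 0 at 72 h, although against genes of like length those of complexes I, II, IV and V were below 0 at 48 h as well.

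The medians of complexes I to V were all above 0 at 48 h and all below 0 at 72 h, although against genes of like length those of complexes I, II, IV and V were below 0 at 48 h too. Complex I had a median of 0.05 (48 h) and −0.12 (72 h), complex II of 0.02 and −0.13, complex III of 0.11 and −0.16, complex IV of 0.06 and −0.21, and complex V of 0.03 and −0.11. At 72 h 30 of 37 complex I genes were lower with butyrate, 3 of 4 of complex II, 7 of 8 of complex III, 10 of 12 of complex IV and 15 of 16 of complex V. Over all genes tested 49.7% were lower at that time. With libraries scaled by total count, which moved the median of all genes at 72 h to 0.05, 24 of 37 genes of complex I were lower, 3 of 4 of complex II, 6 of 8 of complex III, 9 of 12 of complex IV and 13 of 16 of complex V. In that scaling 61 of the 89 members and 42.7% of all genes were lower. Over all alternatives in processing the highest medians at 72 h were −0.065 (complex I), −0.076 (II), −0.10 (III), −0.15 (IV) and −0.056 (V). No value here shows that one complex differed from another.

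Transcript length moved with these differences over the whole table. Among all protein-coding genes tested, those whose longest transcript is up to 1000 bases had a median of 0.15 at 48 h (537 genes) and those over 2000 bases a median of −0.04 (10741 genes). From 48 h to 72 h with butyrate the medians of the same classes were −0.24 and 0.03. The members are short: 40 have a longest transcript of up to 1000 bases, 29 of more than that up to 2000 bases and 20 of over 2000 bases. At 72 h the short genes of the whole table had a median of −0.04 and the long ones of 0.01, while the members had −0.12 in the first class, −0.11 in the second and −0.13 in the third. Set against the median of their own length class, the members were at −0.04 at 48 h and at −0.09 at 72 h. On that scale the medians at 48 h were below 0 for complexes I (−0.044), II (−0.046), IV (−0.035) and V (−0.056), and above 0 for complex III (0.023). The part of length in the members' changes was not tested, and the classes were chosen after values had been seen.

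**Figure D2:**
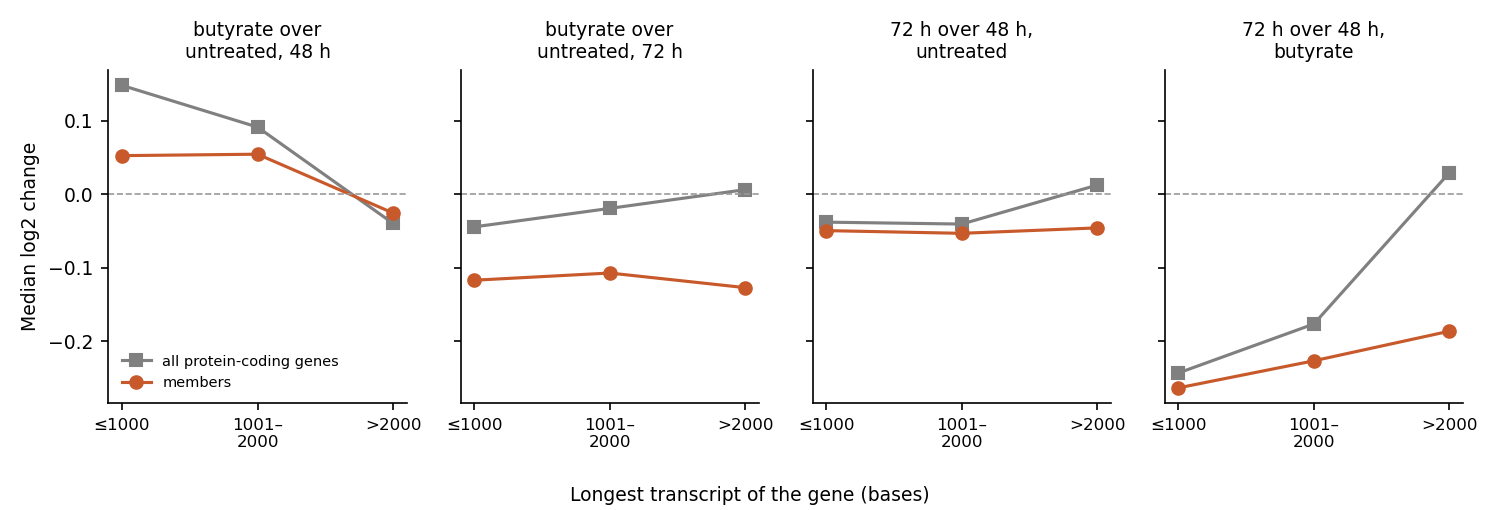
Median log2 change (vertical axis) by length of the longest transcript in bases (horizontal axis) for the members (orange) and for all protein-coding genes tested (grey), in the 4 comparisons. At 72 h the members lay below the other genes in every length class, and at 48 h the short members lay below other short genes.

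Complex I, the NADH dehydrogenase, holds 7 nuclear core subunits, among them those that carry its flavin and iron-sulphur clusters, and many supernumerary subunits around them. The core genes stayed near their untreated level, with a median log2 change of −0.04 at the earlier and −0.02 at the later time. *Ndufs1*, the largest subunit, which carries iron-sulphur clusters, had normalised counts of 2804 against 2529 (48 h) and 2816 against 2572 (72 h). It was lower with butyrate at both times, with changes of −0.15 (−0.23 to −0.07) and −0.13 (−0.21 to −0.05). *Ndufv1*, which holds the NADH site, had 2436 against 2442 (48 h) and 2117 against 2087 (72 h). Both of its intervals included 0, whereas its 2 untreated libraries differed by −0.20. *Ndufs3* had log2 changes of −0.23 at the earlier and 0.06 at the later time, and *Ndufv2* of 0.12 and −0.14. For *Ndufs7* the values were −0.05 and −0.01, and for *Ndufs8* −0.04 and −0.03.

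The 30 supernumerary genes had medians of 0.08 (48 h) and −0.13 (72 h). At 72 h 6 of the 30 (20%) were at least 20% lower, near the 17.4% of all genes tested, and 1 of the 6 is the pseudogene name *Ndufb4c*. *Ndufa1*, a small subunit of the membrane arm on the X chromosome (X, 37187588 to 37191163 in GRCm38), had normalised counts of 799.6 against 829 (48 h) and 807 against 450.4 (72 h). The butyrate library at 72 h stood apart from the other 3, which lay close together. Its log2 change was 0.05 (−0.09 to 0.19) at the earlier and −0.84 (−1.01 to −0.67) at the later time, the lowest value of any member. *Ndufa6* had log2 changes of 0.05 and −0.46, *Ndufa3* of −0.17 and −0.39, *Ndufa8* of −0.13 and −0.34, and *Ndufb2* of −0.03 and −0.35. *Ndufa1*, *Ndufa6* and *Ndufa8* were named after their values were seen.

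The complex I genes at least 25% higher at 48 h were *Ndufab1* and *Ndufa7*, both named after their values were seen. *Ndufab1*, the mitochondrial acyl carrier protein, which also serves fatty acid and lipoate synthesis, had 1889 normalised counts against 2467 (48 h) and 1748 against 1791 (72 h). The butyrate library at 48 h was the highest, and the change was 0.39 (0.30 to 0.47) at the earlier and 0.04 (−0.06 to 0.13) at the later time. *Ndufa7* had log2 changes of 0.33 and −0.02. *Ndufc1* was higher at both times, by 0.17 (−0.01 to 0.35) and 0.26 (0.07 to 0.46).

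The name *Ndufb4c* is a processed pseudogene in the GENCODE annotation, and all of its 31-base words also occur in *Ndufb4*, a supernumerary subunit. Its 1018 counts against 1343 (48 h) and 1215 against 871 (72 h) can therefore be reads of *Ndufb4*, whose own counts were 286 and 392, and 270 and 234. The summed counts of both names had log2 changes of 0.24 (0.14 to 0.34) at the earlier and −0.30 (−0.41 to −0.18) at the later time, and the same direction was seen for *Ndufb4c* alone, at 0.23 and −0.35.

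The assembly factors of complex I, which build it and are not part of the finished enzyme, had log2 changes between −0.24 and 0.63 at 48 h. Of the 10 assembly factors in the set, 4 were at least 25% higher at 48 h and 0 at least 20% lower, and at 72 h 1 was higher and 3 were lower by that size, where 22.7%, 20.5%, 18.1% and 17.4% of all genes tested were. *Ndufaf7*, an arginine methyltransferase, had 357 normalised counts against 553 (48 h) and 394 against 492.5 (72 h). The butyrate library was the higher at each time, with changes of 0.63 (0.44 to 0.83) and 0.32 (0.13 to 0.52). *Ndufaf6* had 151 counts against 220 (48 h) and 121 against 148 (72 h), and had log2 changes of 0.37 (0.07 to 0.68) and 0.42 (0.06 to 0.78). *Ndufaf1* had log2 changes of 0.37 and 0.10. *Ndufaf8* and *Ndufaf3* were lower with butyrate at both times, *Ndufaf8* at −0.24 (−0.63 to 0.15) and −0.62 (−1.06 to −0.21) and *Ndufaf3* at −0.18 and −0.41. *Ndufaf2* had log2 changes of 0.54 and −0.09, but 65.1% of its 31-base words lie in another annotated gene, so its reads could be divided between them.

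**Figure D3:**
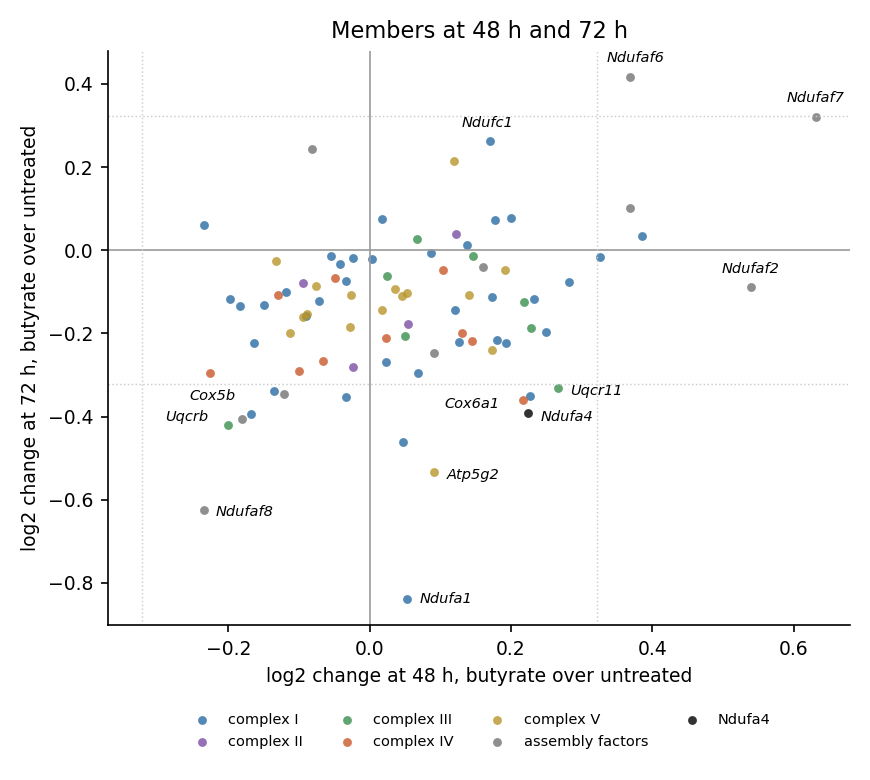
Log2 change with butyrate at 48 h (horizontal axis) against 72 h (vertical axis) for 86 members, coloured by complex; dotted lines mark 25% higher and 20% lower, and 3 members above 1 are not drawn. The lower right quadrant, higher at 48 h and lower at 72 h, holds 40 members, and the upper left holds 2.

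Complex II, the succinate dehydrogenase, belongs to both the respiratory chain and the citric acid cycle. *Sdha*, its flavoprotein, had 7741 normalised counts against 7248 (48 h) and 7679 against 7271 (72 h). It was lower with butyrate at both times, with changes of −0.09 (−0.14 to −0.05) and −0.08 (−0.13 to −0.03). *Sdhb*, the iron-sulphur subunit, had 2262 against 2226 (48 h) and 2340 against 1927 (72 h), with changes of −0.02 and −0.28 (−0.37 to −0.19). The membrane anchors *Sdhc* and *Sdhd* had log2 changes of 0.12 and 0.05 at 48 h, and 0.04 and −0.18 at 72 h. None of the 4 reached the fixed size of difference at either time. Per kb of exon sequence, *Sdhd* had the highest mean level of the complex, at 3012 normalised counts per kb, and *Sdhc* the lowest, at 898.

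Complex III, the cytochrome bc1 complex, had 7 of 8 genes higher with butyrate at 48 h and 7 of 8 lower at 72 h. Of all genes tested 48.7% were higher at 48 h and 49.7% lower at 72 h. *Uqcrfs1*, the Rieske iron-sulphur protein, had 2718 normalised counts against 2847 (48 h) and 2439 against 2485 (72 h). It was the gene of the complex that was not lower at 72 h, and both of its intervals included 0. The core proteins *Uqcrc1* and *Uqcrc2* had log2 changes of 0.15 and 0.05 at 48 h, and −0.01 and −0.21 at 72 h. *Uqcr11*, a small subunit, had 1735 against 2088 (48 h) and 1795 against 1426 (72 h). The highest of its 4 libraries was butyrate at 48 h and the lowest butyrate at 72 h, with changes of 0.27 (0.18 to 0.36) and −0.33 (−0.44 to −0.23). *Uqcrq*, *Uqcr10* and *Uqcrh* had log2 changes of 0.23, 0.22 and 0.02 at 48 h, and −0.19, −0.12 and −0.06 at 72 h. *Uqcrb*, which helps to bind ubiquinone, was lower at both times. It had 4128 against 3592 (48 h) and 4499 against 3361 (72 h), with changes of −0.20 (−0.26 to −0.14) and −0.42 (−0.49 to −0.35). Of the 31-base words of *Uqcrb*, 34.8% lie in other genes of the annotation. *Uqcrb* had the highest level per kb of the complex, at 4446, and *Uqcrq* the lowest, at 982. Over the longest transcript in place of all exons *Uqcrb* was at 6894 per kb.

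Complex IV, cytochrome c oxidase, takes its catalytic centre from the mitochondrial genome and its other subunits from the nucleus, several of them as pairs of genes used in different tissues. All 10 widely used genes were lower with butyrate at 72 h, where 49.7% of all genes tested were. Their median was −0.21 at 72 h and −0.01 at 48 h. At 72 h *Cox4i1* was level (0.00) when libraries were scaled by total count. *Cox4i1*, an ATP-sensing subunit, had 6535 normalised counts against 7024 (48 h) and 6299 against 6090 (72 h), with changes of 0.10 (0.06 to 0.15) and −0.05 (−0.10 to 0.00). *Cox5b* was lower at both times, at −0.23 (−0.28 to −0.17) and −0.29 (−0.36 to −0.23), and *Cox5a* had log2 changes of 0.14 and −0.22. *Cox6a1* had 5672 against 6596 (48 h) and 5948 against 4633 (72 h). Its highest and lowest libraries were both butyrate libraries, with changes of 0.22 (0.17 to 0.27) at the earlier and −0.36 (−0.42 to −0.30) at the later time. *Cox6b1* had log2 changes of 0.02 and −0.21, *Cox7a2* of −0.05 and −0.07, the supercomplex factor *Cox7a2l* of 0.16 and −0.04, *Cox7b* of 0.13 and −0.20, and *Cox8a* of −0.10 and −0.29. *Cox8a* had the highest level per kb of the complex, at 8633, and *Cox6b2* the lowest, at 55.3, or 105 over the longest transcript.

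Among the alternative forms of complex IV, *Cox7a1*, the form of heart and skeletal muscle, was higher with butyrate at 48 h. It lies on chromosome 7 from 30184144 to 30186078 in GRCm38 and had 68 counts against 284 (48 h) and 62 against 60 (72 h). The butyrate library at 48 h stood above the other 3, which were alike. The change was 1.87 (1.5 to 2.29) at the earlier and 0.08 (−0.45 to 0.62) at the later time. *Cox6b2*, known as the testis form, on chromosome 7 from 4751792 to 4753094, had 30 counts against 159 (48 h) and 23 against 44 (72 h). It was higher with butyrate at each time, by 2.20 (1.66 to 2.85) and 1.03 (0.31 to 1.86). Neither gene shares a 31-base word with another gene in the annotation. At 48 h *Cox7a1* reached 258 normalised counts where its widely used counterpart *Cox7a2* had 1855, and *Cox6b2* reached 144 where *Cox6b1* had 4481. The 3 muscle markers had a summed normalised count of 8.18 untreated and 12.7 with butyrate at 48 h, and 2 of them were at 0 counts in the untreated library.

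*Ndufa4* was first counted with complex I and is known as a subunit of complex IV, and *Ndufa4l2* is its paralogue, known as a gene of the response to low oxygen. *Ndufa4l2*, on chromosome 10 from 127514967 to 127517154, had 6 counts against 74 (48 h) and 8 against 130 (72 h). Both butyrate libraries were far above both untreated ones, with changes of 3.26 (2.26 to 4.94) and 3.99 (3.13 to 5.39), the highest of all members at each time. Since it passed the filter through those libraries alone, its place in the set rests on this difference. *Ndufa4* had 2008 normalised counts against 2346 (48 h) and 2157 against 1645 (72 h), with log2 changes of 0.22 (0.14 to 0.31) and −0.39 (−0.49 to −0.30). Even in the butyrate library at 72 h, *Ndufa4l2* had 140.4 normalised counts and *Ndufa4* 1645.

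**Figure D4:**
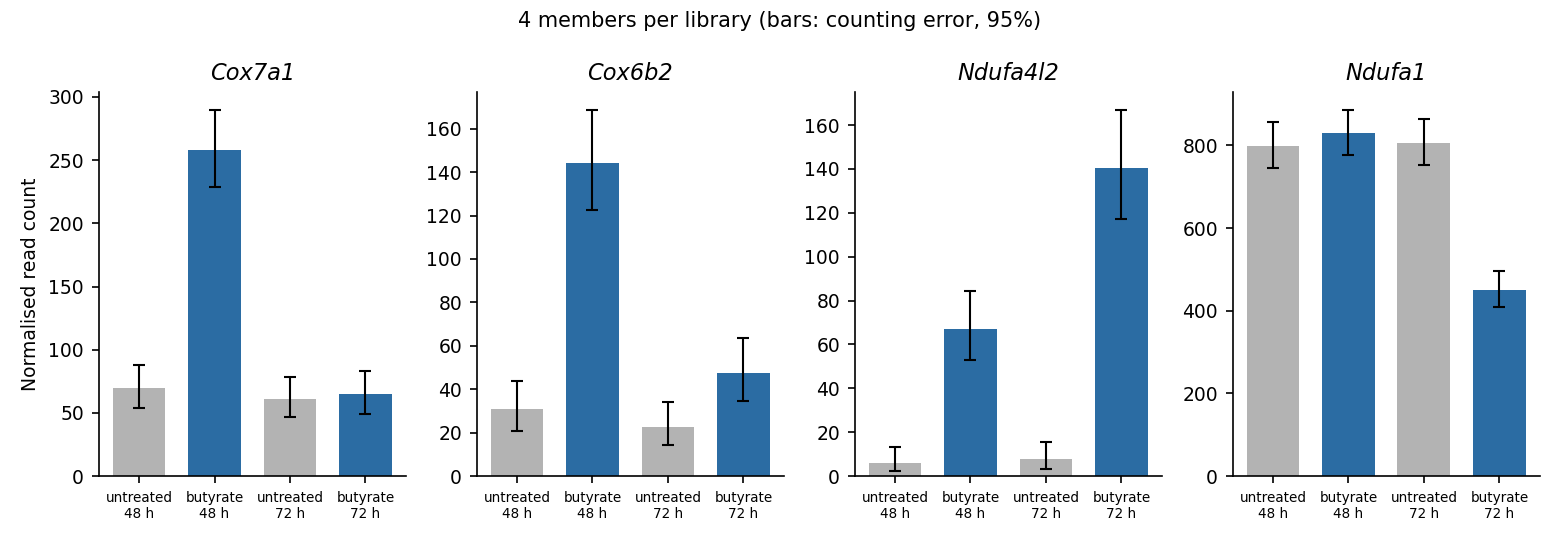
Normalised read count (vertical axes, from 0) of *Cox7a1*, *Cox6b2*, *Ndufa4l2* and *Ndufa1* in the untreated (grey) and butyrate-treated (blue) library at 48 h and 72 h; bars show exact Poisson 95% intervals of the count. *Cox7a1* and *Cox6b2* were highest with butyrate at 48 h, *Ndufa4l2* with butyrate at 72 h, and *Ndufa1* was lowest with butyrate at 72 h.

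The other alternative forms were at the edge of detection or below it. *Cox4i2* had 0 counts in both cultures at 48 h, and 1 against 3 at 72 h. *Cox6a2* and *Cox6c2* were seen without butyrate at 72 h alone, with 2 counts and 1 count, and *Cox8b* without butyrate at 48 h alone, with 1 count. The genes *Cox7b2*, *Cox8c*, *Ndufa11b* and *Ndufs6b* had 0 in all 4 libraries. A count of 0 allows up to 3 counts, which correspond to between 0.124 and 0.144 CPM (counts scaled to a common library total). These 8 symbols are the ones that the filter left out.

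The promoters of *Cox7a1* and *Cox6b2* are shown with those of their widely used counterparts because the pairs differ in CG content, and that of *Cox6a1* because it holds 3 of the motifs searched. Each is the stretch of 250 bases before the start site in RefSeq (GRCm38.p6), 5′ to 3′ on the strand of the gene. Capitals mark CCAAT, the letters of the NF-Y motif, CCGGAAG, those of the ETS and GABP motif, and the NRF1 motif, each on either strand.
Cox7a1, chr7:30183921-30184170, plus strand: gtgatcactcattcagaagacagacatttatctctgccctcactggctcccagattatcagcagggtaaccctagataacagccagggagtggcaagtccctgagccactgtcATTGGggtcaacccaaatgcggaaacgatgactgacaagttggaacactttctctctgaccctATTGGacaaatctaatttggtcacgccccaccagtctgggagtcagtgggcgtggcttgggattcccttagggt
Cox7a2, chr9:79759854-79760103, minus strand: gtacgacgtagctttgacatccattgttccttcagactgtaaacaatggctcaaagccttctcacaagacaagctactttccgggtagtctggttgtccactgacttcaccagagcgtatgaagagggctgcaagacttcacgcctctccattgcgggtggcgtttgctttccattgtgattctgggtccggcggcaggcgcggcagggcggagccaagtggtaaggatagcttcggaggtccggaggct
Cox6b2, chr7:4753095-4753344, minus strand: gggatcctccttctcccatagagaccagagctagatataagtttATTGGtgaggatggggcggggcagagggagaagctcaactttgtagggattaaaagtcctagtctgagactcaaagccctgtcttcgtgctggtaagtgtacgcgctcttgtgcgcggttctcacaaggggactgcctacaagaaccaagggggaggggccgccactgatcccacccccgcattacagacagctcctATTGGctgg
Cox6b1, chr7:30626115-30626364, minus strand: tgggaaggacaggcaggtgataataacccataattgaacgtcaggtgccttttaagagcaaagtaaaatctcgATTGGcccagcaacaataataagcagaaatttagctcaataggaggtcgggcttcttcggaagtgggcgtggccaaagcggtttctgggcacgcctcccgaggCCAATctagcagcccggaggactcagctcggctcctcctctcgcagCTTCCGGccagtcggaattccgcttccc
Cox6a1, chr5:115348959-115349208, minus strand: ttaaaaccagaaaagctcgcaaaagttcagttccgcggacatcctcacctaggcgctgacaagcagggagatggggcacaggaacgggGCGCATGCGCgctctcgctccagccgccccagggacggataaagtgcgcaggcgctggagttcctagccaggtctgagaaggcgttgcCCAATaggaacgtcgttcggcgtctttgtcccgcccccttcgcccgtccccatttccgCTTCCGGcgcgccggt

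The stretch of *Cox7a1* holds 4 CG dinucleotides, as few as any of the 74 members with a promoter in the table (*Ndufc2* also holds 4), and that of *Cox6b2* holds 8. *Cox7a2* and *Cox6b1* hold 14 each and *Cox6a1* holds 26, and the median of the 74 was 15. Motifs of factors known to bind promoters of respiratory genes were searched on both strands in the whole 300-base windows. The NRF1 motif, a palindrome in which GCGCA is directly followed by TGCGC, was in 9.46% of the members' windows and in 0.977% of all 27025 promoters. The ETS and GABP letters CCGGAAG were in 23.0% and 9.12%, the YY1 letters AAGATGGC in 13.5% and 2.88%, the ERR letters TCAAGGTCA in 2.70% and 0.407%, and the NF-Y letters CCAAT in 44.6% and 37.9%. In the same order, the members' shares stand for 7, 17, 10, 2 and 33 of 74 windows. Among the 10692 tested genes with a window the shares were 1.98%, 17.5%, 4.54%, 0.243% and 38.9%. A match describes the sequence and not the binding of a factor. Of the mRNAs of these factors, *Nrf1* had log2 changes of −0.08 at the earlier and 0.20 at the later time, *Gabpa* of −0.13 and 0.11, *Yy1* of 0.00 and 0.10, and *Esrra*, an oestrogen-related receptor, of 0.08 and −0.22.

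Complex V, the ATP synthase, held the 2 most abundant members. *Atp5a1* and *Atp5b* encode the alpha and beta subunits of the catalytic F1 head. *Atp5b* had 28337 normalised counts against 25859 (48 h) and 27315 against 26848 (72 h), with changes of −0.13 (−0.16 to −0.11) and −0.02. *Atp5a1* had log2 changes of −0.08 (−0.10 to −0.05) and −0.09 (−0.11 to −0.06). The other F1 genes *Atp5c1*, *Atp5d* and *Atp5e* had log2 changes of −0.11, 0.14 and 0.12 at 48 h, and −0.20, −0.11 and 0.21 at 72 h. *Atp5e* was higher at 72 h, with 622 counts untreated and 660 with butyrate. Of the membrane part, *Atp5l* had log2 changes of 0.17 and −0.24, and had the lowest level per kb of the complex, at 369.7, where *Atp5a1* had 8468. Over the longest transcript *Atp5b* was at 14139 per kb, above *Atp5a1* at 9928.

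The c ring of the ATP synthase, through which protons pass, is encoded by 3 genes that make the same mature subunit, *Atp5g1*, *Atp5g2* and *Atp5g3*. *Atp5g1* had 2680 normalised counts against 2510 (48 h) and 2591 against 2318 (72 h), with changes of −0.09 and −0.16. *Atp5g3* had 4928 against 4633 (48 h) and 4768 against 4290 (72 h), with changes of −0.09 and −0.15. *Atp5g2* went another way, with 672 counts against 807 (48 h) and 1084 against 684 (72 h). Its untreated library at 72 h was the high one, and the changes were 0.09 (−0.06 to 0.24) and −0.53 (−0.68 to −0.40).

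Over its coding sequence, reads of *Atp5g2* cannot be told apart from those of *Gm10175*, annotated as a transcribed processed pseudogene on chromosome 7 from 23946646 to 23947290 (GRCm38). The coding sequence of *Atp5g2* has 438 bases in GENCODE, and all 438 occur without a difference in *Gm10175*. Of the 31-base words of all *Atp5g2* transcripts, 40.2% lie in other genes. The last 90 coding bases before the stop codon are shown for the 3 genes and the matching stretch of the pseudogene, read 5′ to 3′ from the GENCODE transcripts, with capitals at bases that differ from *Atp5g2*.
Atp5g2: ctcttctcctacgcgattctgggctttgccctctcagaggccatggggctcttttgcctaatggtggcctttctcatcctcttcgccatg
Gm10175: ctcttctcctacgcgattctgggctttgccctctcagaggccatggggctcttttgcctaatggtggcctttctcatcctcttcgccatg
Atp5g1: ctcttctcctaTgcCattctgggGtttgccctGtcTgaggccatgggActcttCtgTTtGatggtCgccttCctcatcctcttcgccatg
Atp5g3: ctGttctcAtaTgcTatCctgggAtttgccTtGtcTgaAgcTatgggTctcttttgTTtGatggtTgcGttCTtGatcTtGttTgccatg

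In this stretch *Atp5g1* differs from *Atp5g2* at 12 of 90 bases and *Atp5g3* at 23, whereas *Gm10175* differs at 0. *Gm10175* had 1264 counts against 1290 (48 h) and 795 against 1066 (72 h). In the untreated library at 72 h *Atp5g2* had its highest count and *Gm10175* its lowest. The summed counts were 1936 against 2097 (48 h) and 1879 against 1750 (72 h). Summed, the change was −0.06 (−0.15 to 0.03) at the earlier and 0.03 (−0.07 to 0.12) at the later time, so the lower value of *Atp5g2* at 72 h was not present in the sum. *Gm10175* was looked at after the values of *Atp5g2* had been seen.

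**Figure D5:**
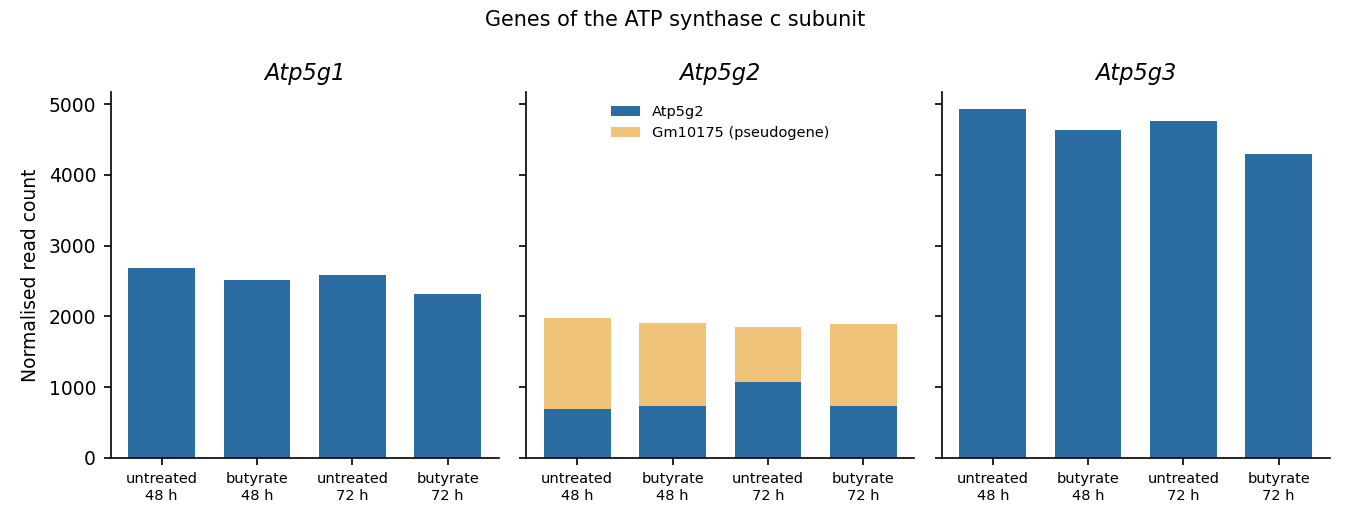
Normalised read count (vertical axis, from 0) of the 3 genes of the ATP synthase c subunit in the 4 libraries, with the pseudogene *Gm10175* stacked on *Atp5g2*. The summed height of *Atp5g2* and *Gm10175* lies between 1855 and 1979.6 in every library, while the division between them differs in the untreated library at 72 h.

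Across the times, 15 members (16.9%) were higher with butyrate at both 48 h and 72 h, where 30.4% of all genes tested were, and 32 (36.0%) were lower at both, where 31.3% were. A further 40 (44.9%) were higher at 48 h and lower at 72 h, against 18.4% of all genes, and 2 (2.25%) went the opposite way, against 19.9%. *Ndufa4l2*, *Cox6b2* and *Ndufaf6* were at least 25% higher at both times, and 0 members were at least 20% lower at both. In 16 members the signs were opposite and both counting intervals excluded 0, which is 18% of the members and 9.86% of all genes tested. None of these shares was computed among genes of like length. Of protein-coding genes of up to 1000 bases 33.9% were lower at 48 h and 56.1% at 72 h, beside 32.5% and 87.5% of members of that length. The highest library was less than 25% above the lowest in 47 of 89, and more than 2-fold above it in *Cox7a1*, *Cox6b2* and *Ndufa4l2*.

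The other genes of the pathway were taken from lists written for this tissue. Of 41 assembly factors outside the symbol rule, 13 were higher by the fixed size at 48 h and 3 lower, and at 72 h 3 were higher and 5 lower, with medians of 0.21 and −0.03. These are 31.7% and 7.32% of the list at 48 h and 7.32% and 12.2% at 72 h, beside 22.7%, 20.5%, 18.1% and 17.4% of all genes tested. *Nubpl*, which delivers iron-sulphur clusters to complex I, had 102 counts against 214 (48 h) and 76 against 146 (72 h), with changes of 0.89 (0.55 to 1.2) and 1.06 (0.66 to 1.49). The complex III assembly factors *Uqcc2* and *Bcs1l* had log2 changes of 0.66 and 0.59 at 48 h, and 0.22 and 0.08 at 72 h. *Pet117* had 28 counts against 7 (48 h) and 23 against 23 (72 h). The mobile carrier cytochrome c, *Cycs*, had log2 changes of 0.19 (0.11 to 0.26) and −0.21 (−0.29 to −0.13), and *Cyc1*, cytochrome c1 of complex III, which the symbol rule leaves out, of 0.07 and 0.09. The ATP/ADP carrier *Slc25a4* had log2 changes of 0.60 and 0.32, and the more abundant *Slc25a5* of 0.14 and −0.04.

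The 78 genes of the mitochondrial ribosome had a median of 0.19 at 48 h, with 17 at least 25% higher and 0 at least 20% lower, and of 0.02 at 72 h, with 1 higher and 4 lower. The 17 are 21.8% of the list, near the 22.7% of all genes tested, and the 0 stands beside 20.5%. At 72 h the shares were 1.28% and 5.13%, beside 18.1% and 17.4%. The 14 genes of the citric acid cycle had medians of 0.10 and −0.04. Of these *Idh2*, the NADP-dependent isocitrate dehydrogenase, had log2 changes of 0.57 (0.50 to 0.63) and 0.46 (0.39 to 0.53), and *Suclg1* of 0.46 and −0.11. The 15 biogenesis regulators had medians of 0.01 and 0.04. The 13 subunits encoded in the mitochondrial genome had medians of −0.09 and −0.23 with butyrate. All 13 were lower at 72 h, where 49.7% of all genes tested were. Between the untreated libraries their median was 0.42, where that of the nuclear members was −0.05.

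Markers of cell types in the cultures moved with the same comparisons. Of all genes tested 48.7% were higher with butyrate at 48 h and 49.7% lower at 72 h. The 8 epithelial markers had a median of 0.02 at 48 h, with 4 higher and 4 lower, and of −0.17 at 72 h, with 7 lower. All 8 colonocyte markers were higher with butyrate at 48 h, with a median of 0.50, and all 8 were lower at 72 h, with a median of −0.39. Their summed normalised counts were 40743 against 72617 (48 h) and 57878 against 36496 (72 h), and no marker was at 0. The 4 stem cell markers had medians of −0.62 and 0.75, and the 6 proliferation markers of 0.06 and 0.33. The 5 goblet markers had medians of 0.01 and −0.87, the 5 enteroendocrine markers of 0.04 and −0.81, and the 3 tuft markers of −0.24 and −1.68. The part of these cell types in the members' changes was not tested.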

How the data were processed

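Poly-A selected RNA from colonoids was sequenced in 4 libraries, 1 for each condition. The sources used here do not say whether each came from a culture set up separately. The authors quantified transcripts with kallisto (0.44.0, GRCm38.p6 per the submitters' processing notes), summed them to genes with tximport, and deposited whole-number counts per gene name. Paralogues and processed pseudogenes can divide reads in such counts.

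Counts were scaled by DESeq2 (1.42.0) size factors over the 13979 genes above 10 counts in 2 or more libraries, with edgeR (4.0.16) TMM factors, total count and nuclear total as alternatives. Log2 ratios had a pseudocount of 1. Exact 95% intervals cover counting error only, and the scripts were tested on simulated data. Lengths, shared 31-base words and coordinates came from GENCODE M21, and promoters from RefSeq (GRCm38.p6), which held 74 of the 89 members.

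Genes were named by role or paralogue set, by the 5 highest and 5 lowest changes of like sign at both times, by 5 of opposite sign, and by extremes per kb. Others were named after values were seen, to complete a complex or list. Members and lists were chosen with earlier results of these data known. For 1 member that the naming rule selects, the values are not reported here.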

Additional observations from a re-analysis of the deposited data

Results flagged for a closer look

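At 48 h and 72 h these results lay in opposite directions, higher and then lower with butyrate, and the difference between the times was not tested. The log2 changes were 0.27 and −0.33 for *Uqcr11*, 0.23 and −0.35 for *Ndufb4c*, and 0.22 and −0.39 for *Ndufa4*. They were 0.22 and −0.36 for *Cox6a1* and 0.25 and −0.20 for *Ndufv3*, a small supernumerary subunit of complex I. The median of complex III was 0.11 at 48 h and −0.16 at 72 h, and that of complex IV was 0.064 and −0.21. For the 10 widely used genes of complex IV the median at 48 h was −0.013, and against genes of like length that of the whole complex was −0.035. The genes were picked for their opposite signs, so their signs are a description.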

How the results depend on the processing

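With 1 library per condition no replicate could be left out. The labels give no replicate numbers, and a fit with time as a block, which would take the times as replicates of the treatment, was not run. Of 74 complex medians recomputed under alternatives, 71 stayed between the median lower and median upper limit of their genes' own intervals. So did 34 of 36 medians over all members. These limits reflect the counting error of single genes and are not an interval of a median, so a median could turn in sign within them. Of counts 31 of 40 stayed within 1.5 times, and 415 of 420 single-gene values stayed within their counting interval. Set against their own length class, an alternative chosen after seeing the data, the members' median was −0.036 at 48 h and −0.064 from 48 h to 72 h with butyrate. The medians at 48 h were then 0.023 for complex III, −0.035 for complex IV, −0.044 for complex I, −0.046 for complex II and −0.056 for complex V, so that all but complex III turned in sign. With *Ndufa4* and *Ndufa4l2* in complex IV its median at 48 h was 0.12. The 9 members higher by the fixed size at 48 h became 5 without assembly factors, 4 at 1.5-fold and 3 at 2-fold. The 0 lower at 48 h became 1 without the count filter and 5 relative to the length class. At 72 h the 3 higher became 1 once genes averaging under 100 normalised counts were left out, and the 14 lower became 8 under total count, 2 at 1.5-fold and 0 at 2-fold. At 72 h *Atp5b* was at 0.027 under total count, and *Atp5g2* at 0.027 when summed with its copy, both reversed. Under total count *Ndufv1* (0.03), *Ndufs7* (0.04), *Ndufs8* (0.02), *Uqcrc1* (0.04), *Cox4i1* (0.00) and *Cox7a2l* (0.01) were among the genes that turned in sign at 72 h, and their main intervals included 0. Of all 89 members 28 were then higher at 72 h, in place of 17. At 48 h the sum of *Atp5g2* with its copy was at −0.06, and *Ndufv1* was between −0.0086 and 0.0093 over its alternatives. The cause was not tested, except that a larger fold and fewer genes lower a count by construction. Of 10 levels per kb, 8 moved little over the longest transcript, and *Uqcrb* (6894) and *Cox6b2* (105) moved by over 1.5 times. Low counts, such as those of *Ndufa4l2* and *Cox6b2*, limit precision.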
